A study of Mus musculus with 6 samples.

Results

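The genes described here are the 9 RBPJ cofactor and Notch feedback genes, namely Rbpj, Snw1, Maml1, Maml2, Maml3, Nrarp, Dtx1, Lfng and Numb. They are 9 of the 22367 protein coding genes of the mouse annotation GENCODE vM1 (assembly NCBIM37, mm9). For each gene, the peaks of 2 lists of RBPJ occupancy sites were collected whose centre lay inside the gene or within 25 kb of either end, which is called its window. The lists come from chromatin immunoprecipitation with sequencing (ChIP-seq) with a custom rabbit polyclonal anti-RBPJ antibody in F9 cells, an established mouse embryonal carcinoma line. One population was asynchronous, meaning cycling cells mostly in interphase with a small mitotic share, and the other was mitotic, meaning cells arrested with nocodazole at 1 µg/ml for 4 h and washed off the dish as loosely attached cells. The series holds 6 libraries, with 2 immunoprecipitations and 1 input per population, and 1 peak list per population, made from the immunoprecipitation numbered 1. No value therefore has a replicate, no test was made between populations, and counts are set beside the share of all protein coding genes, or of all peaks of the list, that meet the same criterion.

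RBPJ is the DNA binding protein of the Notch pathway. Without a Notch signal it sits with corepressors. When a Notch receptor is cleaved, its intracellular domain enters the nucleus, binds RBPJ and recruits a Mastermind-like coactivator, which brings in the acetyltransferase p300. SNW1 (SKIP) is a nuclear cofactor found in both kinds of complex, and MAML1, MAML2 and MAML3 are the Mastermind-like proteins. The other 4 genes act on the signal itself. NRARP is a small ankyrin repeat protein that binds the active complex and limits it, DTX1 (Deltex) is a ubiquitin ligase that binds Notch receptors, LFNG (Lunatic fringe) is a Golgi glycosyltransferase that adds sugar to them, and NUMB is an endocytic adaptor that lowers receptor levels at the membrane. Nrarp, Dtx1 and Lfng are known as Notch targets in other cell types, so the lists answer whether RBPJ was found near these genes in F9 cells and whether it was found there in mitosis.

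The asynchronous list held 5206 peaks of 173 bp with scores of 10.1 to 58.3 (median 11.8), and the mitotic list held 3227 peaks of 203 bp with scores of 10.2 to 282.5 (median 10.9). The score is the value the authors' peak caller gave each peak. Within a list, 99.7% of asynchronous and 99.5% of mitotic scores lay within 0.05 score units of whole multiples of a step. The steps, 0.422 and 0.728, were chosen as the best fit to the scores of each list. If 1 step is 1 read, as in a list scaled to a fixed depth, the lowest scores stand for 24 and 14 reads, so a score was compared only with others of its own list. In all, 9 asynchronous peaks lay at 5 of the 9 genes and 4 mitotic peaks at 3 of them. Snw1 and Dtx1 had peaks of both lists, Maml3, Lfng and Numb only asynchronous peaks, Maml1 only mitotic peaks, and Rbpj, Maml2 and Nrarp none. A peak missing from a list was not called there, which does not show that RBPJ was absent.

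**Figure D1:**
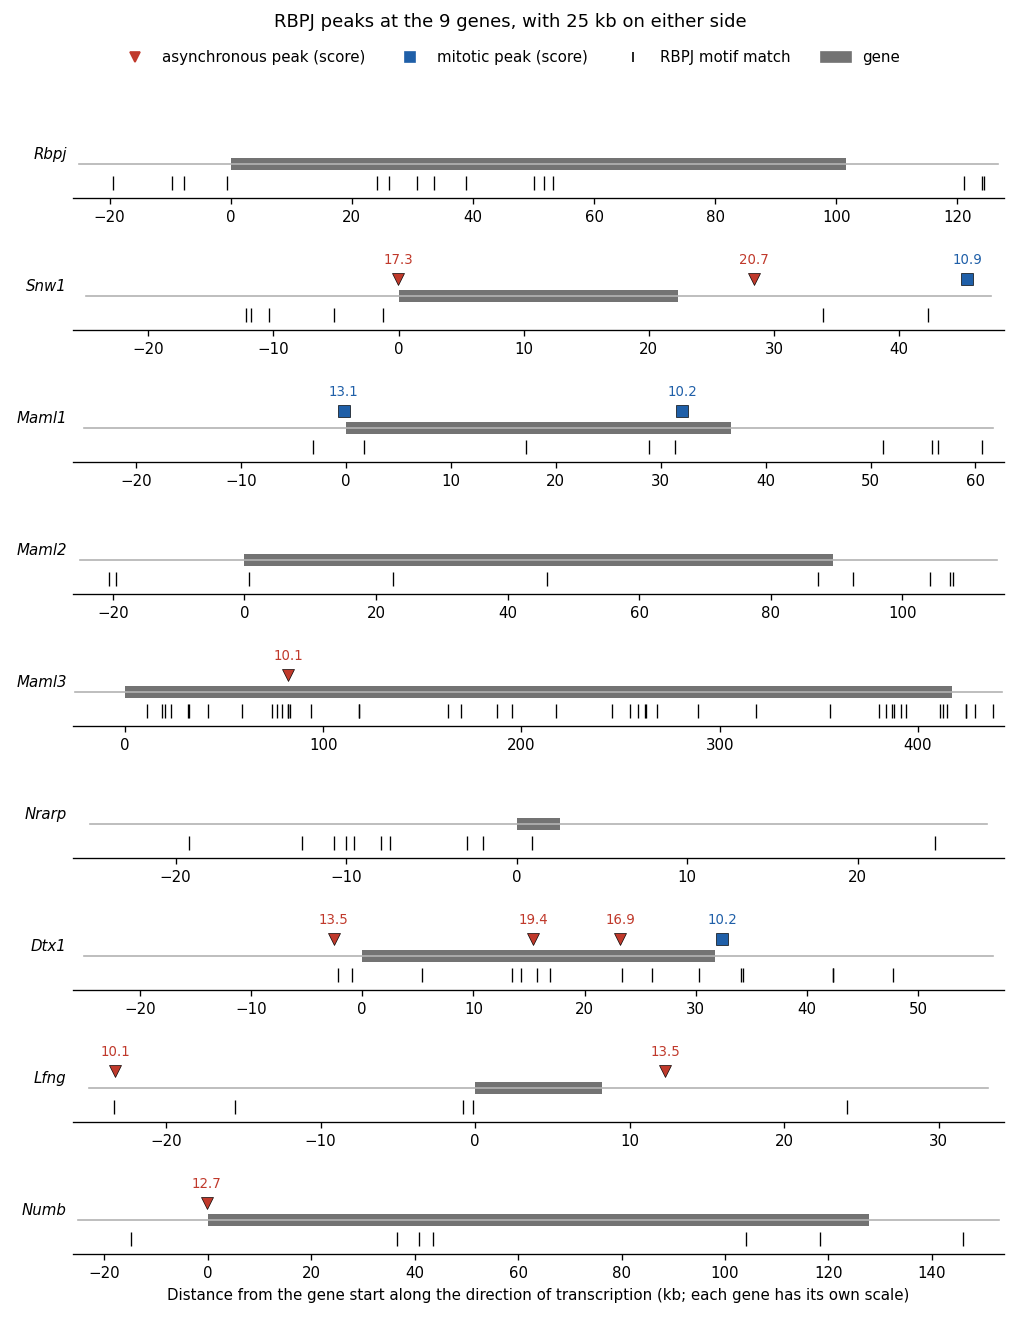
Map of the 9 windows, each on its own scale, with distance from the gene start in kb along transcription, the gene as a gray bar, asynchronous peaks as red triangles and mitotic peaks as blue squares with their scores, and matches to the RBPJ motif as black ticks. Peaks sit at the starts of Snw1, Maml1 and Numb, 3 asynchronous peaks surround or lie in Dtx1, and the windows of Rbpj, Maml2 and Nrarp are empty of peaks.

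The sequences of the peaks that carry these results are printed first, from mm9, 5′ to 3′ on the plus strand. The peaks at the starts of Maml1, Numb and Snw1 are shown because they are the promoter peaks of the group, and the others because they hold the motifs described further on. Capitals mark TTCCCACA or TTCCCACG (the RBPJ motif, also called the full motif) or the shorter TTCCCA, on either strand. They also mark the CTCF core AGNNGGCNN on either strand (the N stand, in order, for A or G, G or T, A or G, and C or G). In the peak in intron 2 of Dtx1, capitals mark a repeated 12-letter unit. CTCF is the insulator protein whose motif the study found enriched at RBPJ occupancy sites, beside that of RBPJ. For Snw1, whose promoter peak reaches into a 5′ untranslated region, 29 bases around the match are given.
Maml3, intron 1, asynchronous, chr3:51826359-51826531: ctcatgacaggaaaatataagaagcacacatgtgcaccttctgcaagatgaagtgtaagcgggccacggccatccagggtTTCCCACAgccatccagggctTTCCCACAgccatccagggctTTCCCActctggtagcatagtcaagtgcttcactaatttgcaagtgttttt
Dtx1, intron 2, asynchronous, chr5:121146449-121146621: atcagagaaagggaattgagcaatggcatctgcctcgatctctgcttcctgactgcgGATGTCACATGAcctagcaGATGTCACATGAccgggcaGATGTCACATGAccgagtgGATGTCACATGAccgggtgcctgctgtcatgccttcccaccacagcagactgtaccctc
Dtx1, intron 3, asynchronous, chr5:121138618-121138790: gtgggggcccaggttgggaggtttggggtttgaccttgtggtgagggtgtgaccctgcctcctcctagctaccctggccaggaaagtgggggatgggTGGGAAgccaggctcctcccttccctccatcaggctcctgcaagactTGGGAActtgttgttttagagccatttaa
Dtx1, upstream, asynchronous, chr5:121164412-121164584: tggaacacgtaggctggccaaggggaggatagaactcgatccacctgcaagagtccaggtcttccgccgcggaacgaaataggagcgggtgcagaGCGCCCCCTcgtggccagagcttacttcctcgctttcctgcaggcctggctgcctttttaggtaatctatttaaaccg
Lfng, upstream, asynchronous, chr5:141059915-141060087: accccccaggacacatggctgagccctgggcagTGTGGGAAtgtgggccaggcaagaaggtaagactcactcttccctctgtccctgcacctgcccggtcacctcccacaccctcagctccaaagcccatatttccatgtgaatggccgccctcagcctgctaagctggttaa
Lfng, downstream, asynchronous, chr5:141095508-141095680: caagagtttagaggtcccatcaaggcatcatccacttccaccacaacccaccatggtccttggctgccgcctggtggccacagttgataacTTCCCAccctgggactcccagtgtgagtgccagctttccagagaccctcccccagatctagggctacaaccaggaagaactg
Numb, promoter, asynchronous, chr12:85262968-85263140: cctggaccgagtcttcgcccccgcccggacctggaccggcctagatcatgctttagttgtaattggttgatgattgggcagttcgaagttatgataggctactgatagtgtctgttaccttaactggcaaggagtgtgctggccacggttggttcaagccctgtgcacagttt
Maml1, promoter, mitotic, chr11:50105963-50106165: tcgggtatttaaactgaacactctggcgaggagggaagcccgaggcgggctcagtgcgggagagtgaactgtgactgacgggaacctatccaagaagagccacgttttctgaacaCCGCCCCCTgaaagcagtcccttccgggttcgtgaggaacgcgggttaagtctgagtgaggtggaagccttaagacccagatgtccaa
Snw1, promoter, asynchronous, chr12:88813195-88813223: cacctggtgaGCGCCATCTtcttccgctt

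Rbpj itself (ENSMUSG00000039191.6, chr5:53947018-54048684, plus strand) had no peak of either list in its window of 151.667 kb. The nearest asynchronous peak lay 68.5 kb upstream of its start. The nearest mitotic peak lay 29.8 kb upstream, just outside the window, with a score of 10.2, the lowest of the mitotic list. The window held 15 matches to TTCCCACA or TTCCCACG, and 2 of them were within 1 kb of an annotated start of Rbpj, at -552 bp from the first start and at -889 bp from a later one.

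Snw1 (ENSMUSG00000021039.8, chr12:88790886-88813249, minus strand) had the asynchronous peak with the highest score among the 9 genes and a peak on its own promoter. The promoter peak was asynchronous, with its centre 29 bp upstream of the start and a score of 17.3, rank 450 of 5206 in a tie of 51 peaks. The highest score, 20.7 (rank 204, tie of 15), belonged to a second asynchronous peak 6022 bp past the end of Snw1. That peak lay at the starts of other genes. Its centre was 2 bp downstream of the start of 1810035L17Rik (Slirp in RefSeq, an RNA binding protein of mitochondria). It was 75 bp upstream of the start of Alkbh1, a nucleic acid demethylase. The mitotic peak of the window, with a score of 10.9 (rank 1099, tie of 753), lay 23090 bp past the gene end in an exon of Alkbh1, 11713 bp downstream of the start of a shorter coding transcript of Alkbh1. It was 17.1 kb from the closest asynchronous peak at the gene, so the 3 peaks of this window marked separate places.

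Among the Mastermind-like genes, each had a different outcome. Maml1 (ENSMUSG00000050567.9, chr11:50069136-50105838, minus strand) was the member with mitotic peaks alone. A mitotic peak with a score of 13.1, rank 298 of 3227 in a tie of 135, lay 226 bp upstream of its start and was the member peak with the highest mitotic score. A second mitotic peak, at the lowest score of the list (10.2, in a tie of 1376), lay in intron 4, 32061 bp from the start. The start of the neighboring Ltc4s, leukotriene C4 synthase, was closer to that peak, at 21659 bp. The nearest asynchronous peaks to these were 79.0 and 85.1 kb away.

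Maml3 (ENSMUSG00000061143.8, chr3:51491533-51908813, minus strand) is the longest of the 9 genes at 417.281 kb, and had 1 asynchronous peak, in intron 1, 82368 bp from the start. Its score was 10.1, the lowest of the list, where 749 peaks were tied. The nearest mitotic peak was 842 kb away. Maml2 (ENSMUSG00000031925.9, chr9:13424434-13513832, plus strand) had none. The annotated record of 89.399 kb is shorter than the RefSeq gene of 412.973 kb, but the nearest asynchronous and mitotic peaks lay 1164.64 and 1408.25 kb from its start, so the longer gene was without a peak as well. The Maml2 window held 10 matches to the RBPJ motif.

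Of the feedback genes, Dtx1 (ENSMUSG00000029603.9, chr5:121130211-121161936, minus strand) had the most peaks, with 3 asynchronous and 1 mitotic. The first asynchronous peak (score 19.4, rank 257, tie of 30) lay in intron 2, 15401 bp from the start of the gene and 1123 bp upstream of the nearest annotated start of a shorter transcript. The second (16.9, rank 501, tie of 61) lay in intron 3, 7.831 kb further on. The third (13.5, rank 1381, tie of 189) lay 2562 bp upstream of the gene. All 3 were above the median score of their list. The mitotic peak had the lowest score of its list, 10.2, and lay 683 bp past the gene end, where Dtx1 and the neighboring Rasal1, a Ras GTPase activating protein, end close to each other. It was 9.18 kb from the closest asynchronous peak.

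Lfng (ENSMUSG00000029570.1, chr5:141083295-141091497, plus strand) had 2 asynchronous peaks, both outside the gene. One (13.5, rank 1381) lay 4097 bp past the gene end, where the annotation also places the end of Ttyh3. The other, at the lowest score of 10.1, lay 23294 bp upstream, closer to the start of Grifin, a galectin-like lens gene, than to that of Lfng. The nearest mitotic peak was 346 kb from the first and 310 kb from the second. Numb (ENSMUSG00000021224.8, chr12:85134984-85262884, minus strand) had 1 asynchronous peak, 170 bp upstream of its start, with a score of 12.7 (rank 1813, tie of 307), and the nearest mitotic peak was 529 kb away.

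Nrarp (ENSMUSG00000078202.2, chr2:25036278-25038850, plus strand) had no peak in its window of 52.573 kb. Its nearest asynchronous peak, with a score of 10.1, was 30.8 kb downstream of the start and outside the window, 53 bp upstream of the start of Cobra1, a subunit of the negative elongation factor. The nearest mitotic peak was 221.831 kb away. The Nrarp window held 11 matches to the RBPJ motif, and the one nearest to its start was at +930 bp.

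**Figure D2:**
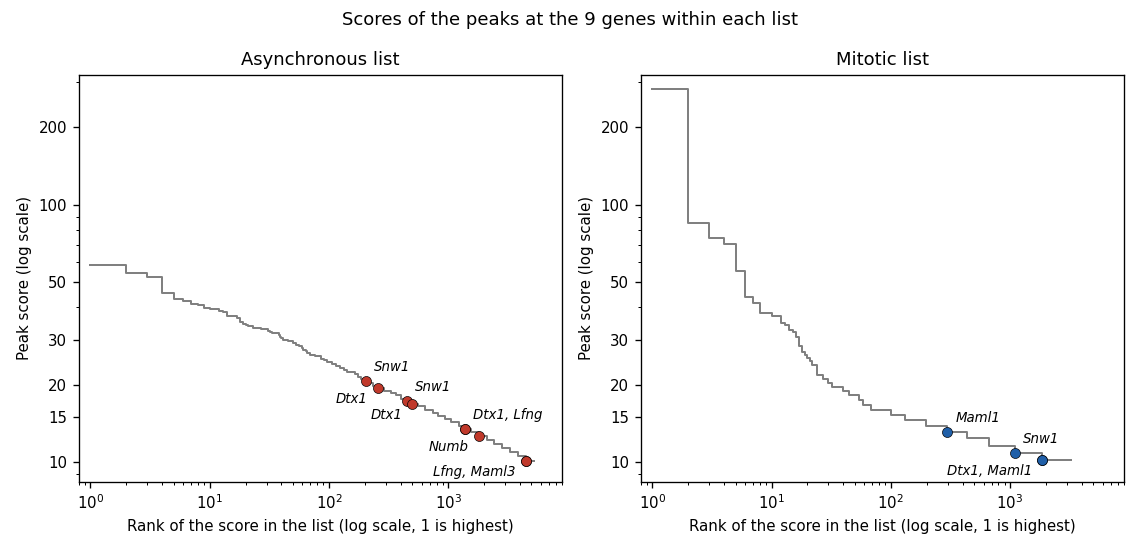
Peak score against rank for each list, both on log scales, with all peaks as a gray line and the peaks at the 9 genes as points labelled by gene (where a point stands for peaks of the same score, both genes are named). Member peaks range from rank 204 (Snw1) to the tie at the lowest score (Maml3, Lfng) in the asynchronous list, and from rank 298 (Maml1) to the tie at the lowest score (Maml1, Dtx1) in the mitotic list.

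Across the group, member peaks ran from rank 204 to the tie at the lowest score in the asynchronous list, and from rank 298 to that tie in the mitotic list. Of the 9 asynchronous member peaks, 7 were at or above the median score, beside 53.9% of all asynchronous peaks. For the mitotic peaks this was 2 of 4, beside 57.4%. Counted by gene, 5 of 9 had an asynchronous peak, beside 29.7% of all protein coding genes, and 3 of 9 a mitotic peak, beside 18.2%. Both lists had a peak at 2 of 9 genes, beside 11.2%, and neither list at 3 of 9, beside 63.3%. Dtx1 was the 1 member with 3 or more asynchronous peaks, beside 3.57% of genes. With 9 genes these counts describe the members and place no share above or below the rest.

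Peaks close to a start were found at 3 members. An asynchronous peak within 1 kb of a coding transcript start was present at 2 of 9 genes, Snw1 and Numb, beside 8.35% of 22359 genes. A mitotic peak was there at 1 of 9, Maml1, beside 3.71%. No member start had peaks of both lists.

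No member peak overlapped a peak of the other list by as much as 1 bp, which was 0 of 9 asynchronous peaks beside 7.74% of that list (403 of 5206) and 0 of 4 mitotic peaks beside 12.5% (403 of 3227). By gene this was 0 of 9, beside 3.94% of protein coding genes with such a shared peak in their window. Overlap of called lists is a narrower measure than that of the paper. The paper compared read enrichment between the populations and counted most asynchronous sites as common to both. The closest approach was at Dtx1, with 9.18 kb between an asynchronous and a mitotic peak, and the widest was at Maml3.

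Since the windows differ from 52.573 kb (Nrarp) to 467.281 kb (Maml3), peaks were also counted per Mb. The asynchronous density was 36.7 per Mb at Dtx1, 34.4 at Lfng, 27.6 at Snw1, 5.62 at Numb and 2.14 at Maml3, and 0 at the other 4 genes. The mitotic density was 23.1 per Mb at Maml1, 13.8 at Snw1 and 12.2 at Dtx1. Over all protein coding windows it was 3.15 asynchronous and 1.83 mitotic peaks per Mb. Maml3 thus lay below that asynchronous value with its 1 peak, while the 3 genes with the densest peaks have windows under 82 kb, in which 1 peak already gives over 12 per Mb. Over the 9 windows together (1.288 Mb) the density was 6.99 asynchronous and 3.11 mitotic peaks per Mb.

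**Figure D3:**
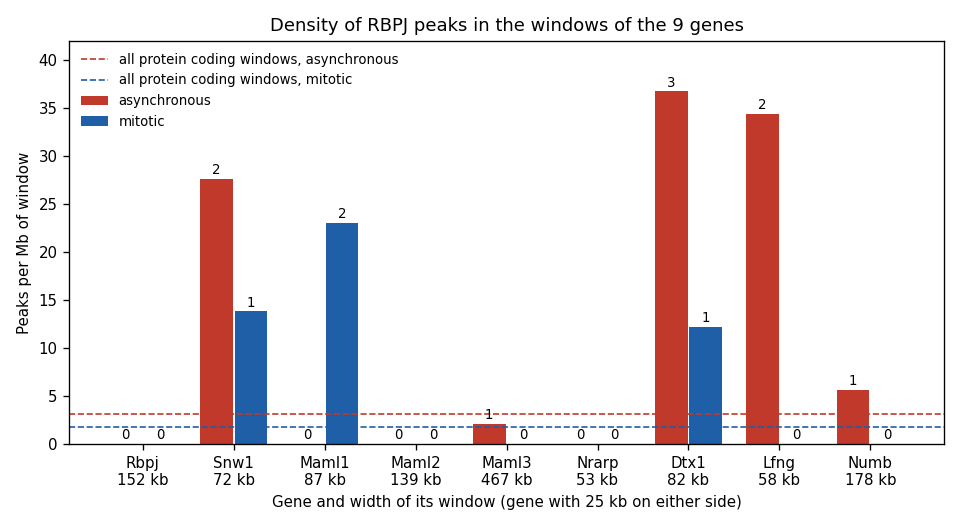
Bars give peaks per Mb in the window of each gene for the asynchronous (red) and mitotic (blue) lists, with the number of peaks above each bar and dashed lines at the density over all protein coding windows (3.15 and 1.83 per Mb). Dtx1, Lfng and Snw1 have the tallest asynchronous bars, Maml1 the tallest mitotic bar, and Rbpj, Maml2 and Nrarp have no peak.

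The RBPJ motif was counted first in its full form. TTCCCACA or TTCCCACG was present in 2 of the 9 asynchronous member peaks, beside 9.09% of the asynchronous list, and in 0 of the 4 mitotic ones, beside 3.53% of the mitotic list. Cut into tiles of 173 bp, the mm9 genome held it in 1.19% of tiles. The Maml3 intron peak held TTCCCACA at both -2.5 and +18.5 bp from its centre and a further TTCCCA at +38.5 bp, so that 3 copies of TTCCCA followed each other at steps of 21 bp, as its printed sequence shows. Having 2 or more full matches placed it among 10 asynchronous peaks (0.192%). The Lfng peak 23294 bp upstream held TTCCCACA on the minus strand, 49.5 bp from its centre. Both of these peaks had the lowest score of the list.

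The shorter letters TTCCCA, which the full motif contains, were present in 5 of the 9 asynchronous member peaks, beside 35.9% of the list, and in 0 of the 4 mitotic ones, beside 25.1%. The additional peaks were those in introns 2 and 3 of Dtx1 and the one downstream of Lfng. The Dtx1 intron 3 peak held it at 2 places on the minus strand, +13.5 and +60.5 bp from the centre, and the Lfng downstream peak at +7.5 bp. In the Dtx1 intron 2 peak it stood at +63.5 bp, to one side of a tandem repeat in which GATGTCACATGA occurred 4 times at steps of 19 bp. A 12-letter unit present 3 or more times in a peak was seen in 2.04% of asynchronous peaks. The mm9 files used here carry no repeat masking, and the part of this repeat in the peak was not tested.

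The CTCF core was present in 2 of the 9 asynchronous member peaks, beside 17.5% of the list, in 1 of the 4 mitotic ones, beside 9.92%, and in 2.09% of the genome tiles. These were the peak upstream of Dtx1 (AGGGGGCGC on the minus strand, 13 bp from the centre), the Snw1 promoter peak (AGATGGCGC on the minus strand, 69 bp from the centre) and the Maml1 promoter peak (AGGGGGCGG on the minus strand, 18 bp from the centre). Of these, only the Snw1 match differed from AGGGGGCGC by more than 1 letter. A match to the letters does not show that CTCF was bound. No member peak held both TTCCCA and the CTCF core as defined here. Sequences that missed this core by 1 letter were not counted, such as one in the Lfng downstream peak, which held TTCCCA. The Numb promoter peak held neither the RBPJ letters nor the CTCF core, and the same was true of the Snw1 peak at the Alkbh1 start and of the 3 remaining mitotic peaks.

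Most motif matches near these genes were outside peaks. The 9 windows held 123 matches, or 95.5 per Mb against 72.8 per Mb of genome, of which 3 were in an asynchronous peak and 0 in a mitotic one. In the genome as a whole, 483 of 186265 matches (0.259%) were in an asynchronous peak and 118 (0.0634%) in a mitotic one. Dtx1 had 15 matches in its window, 4 of them within 1 kb of an annotated start, and none in a peak. The match closest to a gene start was at Lfng, where TTCCCACG stood on the minus strand 107 bp upstream. A second match lay at -762 bp, and the nearest peak of either list was 12.3 kb away. Of the RefSeq promoters (250 bases before to 50 after a start, assembly GRCm38.p6), 2.57% held the full motif. That share is per promoter, while the members were counted per gene. Among the 8 members with an entry, which have 12 promoters, the motif was found at Lfng alone. Its 250 bases before the start are printed because they hold the motif and no peak, with the full match and a shorter TTCCCA in capitals. They also hold the letters AGGGGGCGG, a match to the CTCF core, which are left in lower case here.
Lfng, RefSeq promoter, GRCm38.p6 chr5:140607091-140607340, plus strand: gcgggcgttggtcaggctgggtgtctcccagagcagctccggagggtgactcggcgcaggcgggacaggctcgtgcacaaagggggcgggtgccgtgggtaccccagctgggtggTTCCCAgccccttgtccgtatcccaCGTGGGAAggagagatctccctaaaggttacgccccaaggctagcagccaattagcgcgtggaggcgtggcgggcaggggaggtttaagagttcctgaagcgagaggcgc

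To place the 9 genes in their pathway, 39 other genes of RBPJ complexes and of receptor handling were searched in the same way. Of these, 16 (41.0%) had an asynchronous peak, 11 (28.2%) a mitotic peak, 8 both and 20 neither, and 2 had a shared peak, beside the 29.7%, 18.2%, 11.2%, 63.3% and 3.94% of all protein coding genes. By role, an asynchronous peak was present at 1 of 4 coactivators, 6 of 15 corepressors, 6 of 13 genes of receptor turnover or glycosylation, and 3 of 7 genes of receptor processing. A mitotic peak was present at 2, 5, 3 and 1 of them in the same order. Their windows ran from 51.317 kb (Psenen) to 213.931 kb (Fbxw7), and peaks per Mb were not computed for them. The list of 39 was chosen with earlier results of these data known. These counts describe the 39 genes and place no share above or below the rest.

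An asynchronous peak within 1 kb of a start was present at 6 of these 39 genes, beside 8.35% of all genes, and 4 of the 6 were among the 15 corepressors, the largest class searched. Kdm5a, a histone H3 lysine demethylase found with RBPJ, had the highest, with a score of 39.3, rank 10 of 5206, 343 bp upstream of a start, and a second peak (15.6) at +251 bp that was closer to the start of the neighboring Ccdc77, at -19 bp. Another peak in its window (20.3, rank 219) lay at -22 bp from a start of Ccdc77. Spen, the large RNA binding corepressor also called SHARP or MINT, had 6 asynchronous peaks, 1 of them (10.6) 386 bp upstream of its start and the highest (16.5) 6547 bp upstream. Hdac1, a histone deacetylase, had 1 at +735 bp (11). Rita1, which carries RBPJ out of the nucleus, had 5, with 1 (15.6) 166 bp upstream of its start. Dtx3l, a Deltex relative, had 1 at -776 bp (10.1), and Aph1a, a γ-secretase subunit, 1 at -135 bp (10.6). Among mitotic peaks only that of Rfng (Radical fringe), at +943 bp with a score of 12.4, lay within 1 kb of a start. This Kdm5a peak at rank 10, the highest of 32 asynchronous peaks at the 39 genes, thus ranked above every asynchronous member peak.

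The shared peaks of the pathway were at Rita1 and Mfng. At Rita1 the pair lay about 8 kb upstream, with an asynchronous score of 16.0 (rank 645) at -8312 bp and a mitotic score of 13.8 (rank 196) at -8252 bp, and each held both the RBPJ motif and the CTCF core. The start of Ddx54, an RNA helicase gene, was closer to both, at 7771 and 7711 bp. At Mfng (Manic fringe), the pair lay about 5 kb upstream, with scores of 11.8 (rank 2408) and 10.9 (rank 1099). Lfng, the third fringe gene and the member of the group, had no mitotic peak in its window.

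**Figure D4:**
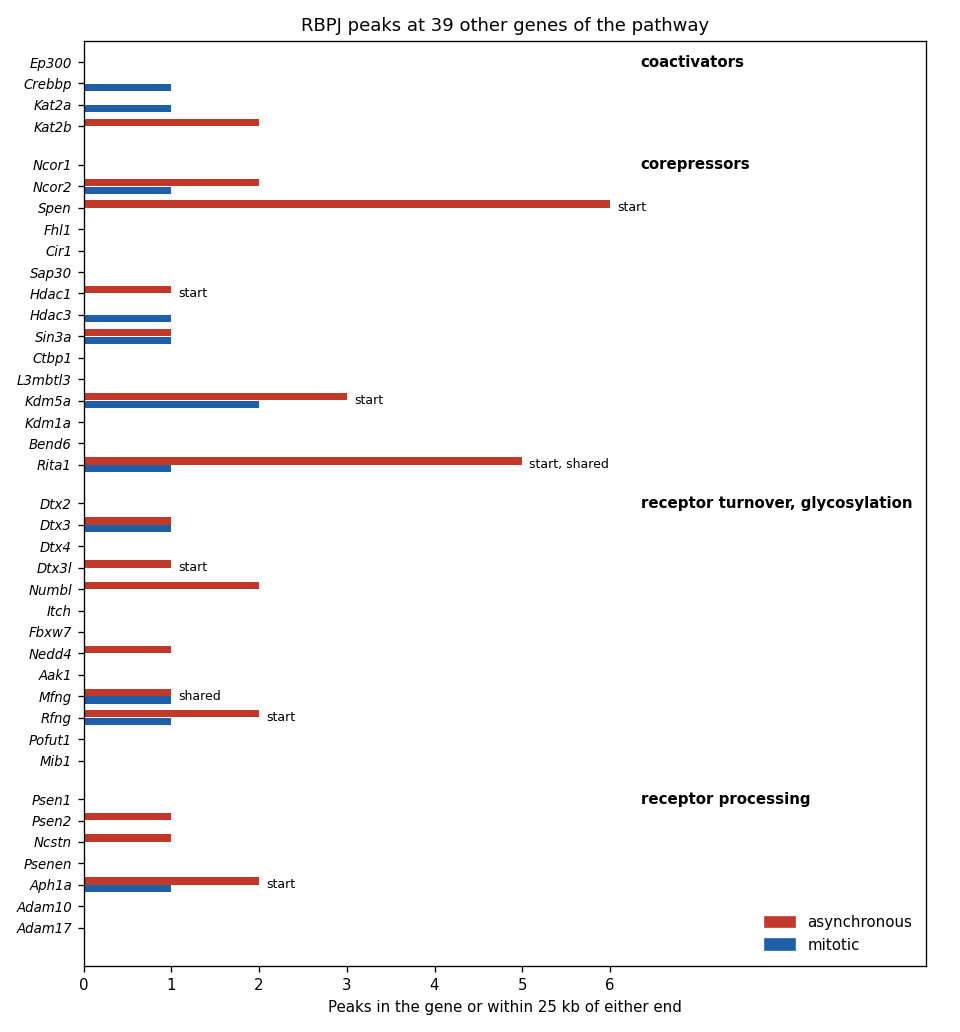
Number of asynchronous (red) and mitotic (blue) peaks in the window of each of the 39 other pathway genes, grouped by role, with genes marked that had a peak within 1 kb of a start or a peak shared by both lists. Spen (6) and Rita1 (5) have the most asynchronous peaks, and shared peaks are marked at Rita1 and Mfng.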

How the data were processed

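Anti-RBPJ ChIP-seq was done in asynchronous and mitotic F9 cells. Per the labels and the study's methods, the authors aligned reads to mm9 with Bowtie 0.12.7 (unique alignments, up to 2 mismatches) and used HOMER to call peaks over the input of the same population (FDR of 0.001, Poisson p of 0.0001), keeping those of at least 1 RPM. The deposited lists give 1 score per peak, whose unit is not given in the sources used here. It is a score from 1 immunoprecipitation per population, without replicates, so its error is unknown and no test was made. Total read counts per library were not used here.

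Peaks were assigned by their centre to genes of GENCODE vM1 with 25 kb on either side, ranked by score, and called shared at an overlap of 1 bp. Promoter peaks were those within 1 kb of a start. Motifs were searched in the peak sequence of NCBIM37 on both strands, and RefSeq promoters (12 for 8 members, none for Snw1) were placed by exact 50 bp matches, which placed 11. Scripts in Python 3.11.15 with pandas 2.3.3 were tested on simulated peaks (200 of 200 windows, pairs and motifs recovered). The members, the pathway list and the motifs were chosen with earlier results of these data known. Named genes are the 9 members with all their peaks, pathway genes with a peak within 1 kb of a start or a shared pair, and protein coding genes whose start was closer to a member peak than the member's own. Alternatives were the flank, the score minimum, the assignment, the overlap, the motif and the gene span. Reads and input libraries were not analysed here.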

Additional observations from a re-analysis of the deposited data

How the results depend on the processing

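Of 58 values recomputed under alternatives, 49 stayed within 1.5 times of the reported count and 9 did not. With 50 kb on either side the 9 genes had 16 asynchronous and 7 mitotic peaks, 2 shared pairs and 5 peaks with the CTCF core, in place of 9, 4, 0 and 3. With 10 kb, 1 asynchronous peak with the full RBPJ motif was left (Maml3), in place of 2. Keeping scores at or above the median of the list left 2 mitotic peaks and 0 asynchronous peaks with the full motif. The letters TTCCCA gave 5 asynchronous peaks with a motif, and a search of 500 bp around the centre gave 5 peaks with the CTCF core. These changes follow from the construction of each alternative. Assignment by any overlap, coding transcripts only, other definitions of a shared peak, a relaxed RBPJ motif, the fixed letters AGGGGGCGC with up to 1 mismatch in place of the CTCF core (2 peaks, without that of Snw1, in place of 3) and, chosen after seeing the data, genes extended to RefSeq starts moved no count by more than 1.5 times. Some of these values could not have moved. With 0 shared pairs at an overlap of 1 bp, a required overlap of 100 bp can only give 0. Narrower windows or a higher score minimum likewise cannot raise a count of 0. No paired analysis was possible because each population has 1 peak list and the counts come from no test.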

Other observations

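Just outside the 25 kb limit, the Snw1 side held 2 places where both lists had a peak. One lay 64.2 kb from the Snw1 start, 41.9 kb past the gene end, with centres 1 bp apart, an asynchronous score of 22.4 (rank 142) and a mitotic score of 13.1 (rank 298). The other lay 58.9 kb from the start, with centres 3 bp apart and scores of 16.0 (rank 645) and 12.4 (rank 433). The start of Sptlc2, a subunit of serine palmitoyltransferase, was the nearest coding start to both. Neither place held the full RBPJ motif or the CTCF core, and the first held TTCCCA within 1.5 bp of its centre in both lists. The asynchronous score of the first place was above that of every peak inside the 9 windows.

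Downstream of Nrarp, 4 asynchronous peaks lay between 30.8 and 47.8 kb from its start, with scores of 10.1, 11, 14.4 and 13.5, and no mitotic peak. The first was 53 bp upstream of the Cobra1 start and the third 7 bp downstream of the start of Tubb2c, a β-tubulin gene. The fourth held the CTCF core as AGGGGGCAC on the minus strand, 56 bp from its centre.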
